A study of Nasonia vitripennis with 6 samples.

Results

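The genes described here are the developmental transcription factor genes of the parasitoid wasp *Nasonia vitripennis*, compared between the ovary and the venom gland (VG). They were taken from the gene annotation alone, as all genes whose description names a homeobox, homeotic, forkhead, helix-loop-helix, T-box, paired box, Sox, GATA, nuclear receptor, ecdysone or ets protein and no zinc finger. The rule found 142 of 36329 genes. Of these, 72 were homeobox genes, 15 forkhead, 11 nuclear receptor, 7 Sox, 6 basic helix-loop-helix (bHLH), 6 ets, 5 T-box, 4 GATA and 3 paired box genes. The other 13 were cofactors, proteins that only share a name with a factor, and a subunit of nuclear transcription factor Y. That subunit (Nasvi2EG008495) matched T-box only through the word caat-box in its description. The homeobox group includes spalt-major, which is a zinc finger factor described as homeotic.

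Females of the Lab II strain, mated, given hosts and aged 1 to 3 days, supplied ovary and VG tissue, and RNA was sequenced in 3 libraries per tissue. Each library was a separate pool of tissue from 40 to 50 females, and no treatment or genetic change separated the groups. Tissues were dissected and no cell type was sorted from them, and an ovary holds germ line and somatic cells together. In such bulk samples, fewer cells of a type and less RNA per cell cannot be told apart.

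Sequence-specific transcription factors bind short DNA motifs and set which genes a cell reads. Hox genes, a subset of the homeobox genes, give segments their identity along the body axis of insects, and can stay active in adult organs. Forkhead, Sox, GATA and T-box factors are each known for roles in organ formation, and nuclear receptors include the receptors and early targets of the insect steroid ecdysone. In *Drosophila*, ecdysone signalling is needed in the adult ovary for egg chambers to develop. The reproductive accessory organs of female wasps, including the VG, lie at the posterior end of the abdomen.

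Values are tissue means of normalised read counts, which were not divided by gene length, so levels were compared between tissues and not between genes. For 93 of the 128 members with a read, the tissue means could be produced by only 1 set of whole reads in the 6 libraries, which gave a value per library. Libraries are called a, b and c within each tissue, and the letters do not pair the tissues. For another 16 members with ovary means up to 500, a value per library was taken by adding the condition that the ovary libraries lie within 2-fold of each other, a condition chosen after seeing the data that also limits the ovary spread of these genes. It held for 2006 of the 2143 genes on which it could be checked. Estimated depth was 24519349 to 27549193 reads per ovary library and 15826323 to 28934209 per VG library. A single read was worth 0.129 to 0.145 in an ovary mean and 0.635 to 1.16 in a VG mean, so low VG values are less precise. A tissue with no reads was put at 3 reads of its shallowest library, a mean of 0.435 in ovary and 3.49 in VG, and a fold against it is a lower bound that covers counting error only.

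Most factor genes were read at some level in both organs. A read was found for 128 of 142 members (90.1%), against 54.7% of all genes. Both tissues had reads of 108 members, 19 had reads in ovary alone and 1 in VG alone. Of the 19854 genes with a read, 14955 had reads in both tissues, 3475 in ovary alone and 1424 in VG alone. Among the 14 with no read were empty spiracles, orthopedia, araucan, caupolican and dichaete. A mean of at least 10 in 1 tissue or both was reached by 77 members. Of these 77, 22 were at least 4-fold higher in ovary, beside 19.3% of the 11382 genes at that level, and 18 were at least 4-fold higher in VG, beside 22.7%. The median log2 ratio of VG to ovary was 0.02 over the 71 of them with reads in both tissues, beside -0.08 over 11048 such genes. The VG share of members was near that of all genes, whereas the ovary share was higher, a difference that was not tested.

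**Figure D1:**
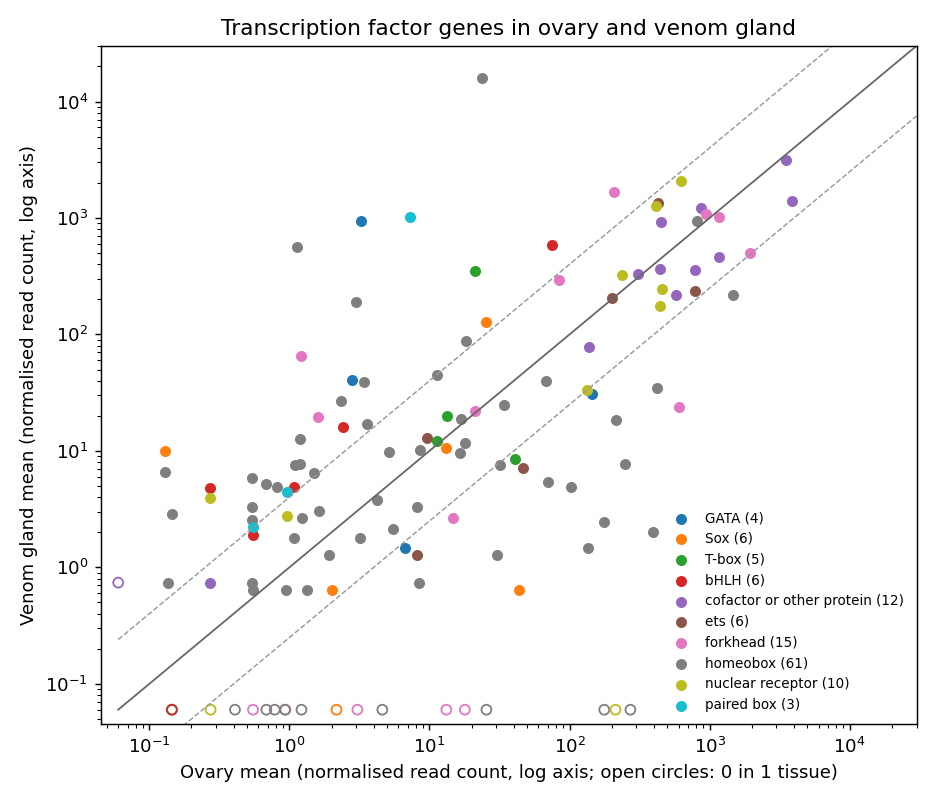
Ovary mean against VG mean in normalised read counts for the 128 members with a read, on log axes, coloured by class with the number of genes in brackets. The solid line marks equal means, the dashed lines a 4-fold difference, and open circles are genes with 0 in 1 tissue. The 18 members counted as higher in VG lie above the upper dashed line, and the 22 counted as higher in ovary lie below the lower one or have no VG read.

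The direction of small differences depends on the scaling. The median log2 ratio of the 8532 genes whose mean reached 10 in each tissue was -0.27, and scaling to totals without the 100 highest genes of each tissue placed the tissues 0.79 apart. Relative to the median of all genes, the 4-fold counts became 19 higher in ovary and 20 higher in VG, and relative to those totals 30 and 14. The shares of all genes under these scalings are not given here. The rescaled counts, here and for the classes below, therefore cannot be set against all genes. Of the 71 members, 2 changed side with the first and 12 with the second, among them the *extradenticle*, *ultrabithorax* and ecdysone receptor genes described below.

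Replicate libraries were compared by a quasi-Poisson fit with dispersions moderated by limma, for members with at least 20 reads. Where a tissue had no reads, the spread of a gene was estimated from the other tissue alone before moderation. With the only possible reads, 53 members could be fitted. Of these, 15 were higher in ovary at an adjusted p under 0.05, beside 21.2% of 5310 genes, and 17 were higher in VG, beside 44.6%. The genes limited to the second way of recovering reads included SIX4, aristaless, Lhx9, cut, Hox-A3, NR2E1, EcR, E75, FTZ-F1 beta, Ets97D, the nuclear receptor corepressor, 1 GATA gene (Nasvi2EG014971) and 2 of the P450 genes below, and their adjusted p comes from a second fit. With ovary means up to 500 included in this way, 69 members could be fitted, of which 26 were higher in ovary, beside 31.1% of 7386 genes, and 19 were higher in VG, beside 37.9%. The 3 libraries of one tissue lay wholly above those of the other for 20 of the 53 in the ovary direction, beside 28.3% of genes, and for 15 in the VG direction, beside 43.7%. These shares cover only genes of low to middle level, since high tissue means did not give reads per library, and members entered through the tissue in which they were high. The limit was an ovary mean of 200, or 500 in the second fit, against a VG mean of 1000. The shares in the 2 directions therefore rest on unequal limits.

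Among the Hox genes, the abdomen genes abdominal-B and abdominal-A had higher VG values, whereas labial and Hox-A3, from the head end of the series, had ovary reads and no VG read. The genes between them gave low or overlapping values, and no test of position was made. Their identifiers fall in a single run of numbers, from abdominal-B to labial; chromosomal positions were not analysed here. The ovary libraries held abdominal-B (Nasvi2EG011053) at 21.7, 24.3 and 25.2. Its VG mean was 15979, a 673-fold higher value, for which reads per library could not be recovered and no test was made. Abdominal-A (Nasvi2EG011061) was at 8.51, 13 and 12.6 in ovary and at 38.1, 68.8 and 27.9 in VG. All VG libraries lay above all ovary libraries, and the log2 difference was 2.05 ± 0.38 (SE, n = 3 per tissue, limma-moderated adjusted p = 0.002). A second gene annotated as an abdominal-A homolog (Nasvi2EG011060) had 8 ovary reads and 10 VG reads, means of 1.09 and 7.61, too few for the test.

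Ultrabithorax (Nasvi2EG011067), the Hox gene of the posterior thorax and anterior abdomen, did not separate the organs. Its ovary libraries held 8.13, 9.72 and 7.83 and its VG libraries 11.4, 15.5 and 3.49, with a log2 difference of 0.37 ± 0.48 (limma-moderated adjusted p = 0.52). Sex combs reduced (Nasvi2EG011083) had 14 ovary reads and 2 VG reads, and deformed (Nasvi2EG011087) had 3 ovary reads and none in VG. No direction can be drawn for either at this depth. In the same run of identifiers, 2 Hox genes lay outside the annotation rule. Antennapedia (Nasvi2EG011076), of the thorax, held 7.74, 10.5 and 8.26 in ovary and 26.7, 44.4 and 3.49 in VG, overlapping sets with a log2 difference of 1.65 ± 0.47 (limma-moderated adjusted p = 0.017). That call was lost without VG library a (0.063) or b (0.15) and with limma on log2 values plus 1 (0.4) or plus 4 (0.31). Proboscipedia (Nasvi2EG011092), a mouthpart gene of the head end, had means of 0.129 in ovary and 2.86 in VG, both too low for the test.

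Hox-A3 and the labial genes were read in ovary alone, so the spread used in their tests came from the ovary libraries. Hox-A3 (Nasvi2EG011090), whose insect relatives include the *zen* genes of the extraembryonic membranes, held 283, 253 and 280 in the ovary libraries and 0 in each VG library. That made 2002 ovary reads against none, at least 78.1-fold higher in ovary (limma-moderated adjusted p = 4.6e-05 in the fit with ovary means up to 500). Labial (Nasvi2EG011095), known from the head and midgut of *Drosophila*, held 175, 174 and 182 in ovary and 0 in each VG library. It was at least 50.8-fold higher in ovary (limma-moderated adjusted p = 9.3e-05). The neighbouring labial gene (Nasvi2EG011094) gave the same picture at a lower level, with 26.3, 27.5 and 22.6 in ovary and 0 in VG (at least 7.31-fold, limma-moderated adjusted p = 0.0025). Both labial entries carry one name, and whether they are parts of one gene was not tested.

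**Figure D2:**
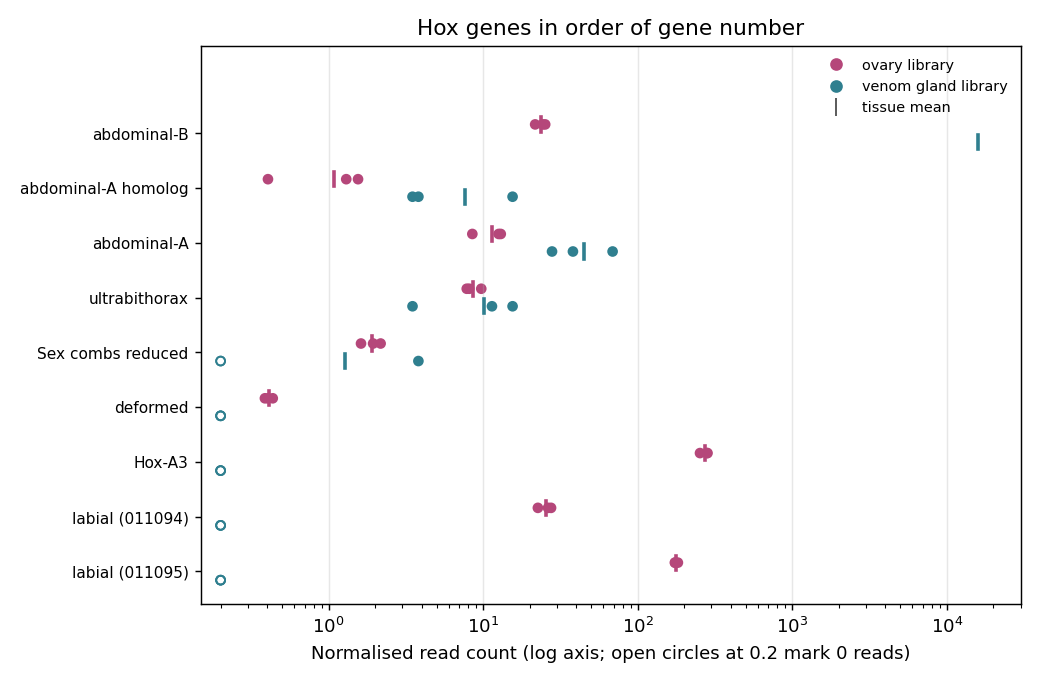
Normalised read counts (log axis) of the Hox genes among the members, ordered by gene number, with a point per library, a bar for the tissue mean and open circles at 0.2 for 0 reads. Abdominal-B has a VG bar at 15979 without library points, and the VG libraries of Hox-A3 and both labial genes are all at 0.

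Hox proteins bind DNA together with the cofactors extradenticle and homothorax, and these differed from each other. Extradenticle (Nasvi2EG003648) had means of 815 in ovary and 939 in VG, with VG libraries at 1146, 573 and 1098; only means were available for ovary, and the side changed with the scaling to totals. Homothorax (Nasvi2EG011699) held 108, 107 and 95.2 in ovary and 7.63, 0 and 6.97 in VG. It was 21.2-fold higher in ovary, with a log2 difference of -4.45 ± 1.02 (limma-moderated adjusted p = 1.3e-04). A second homothorax entry (Nasvi2EG011702) held 39.1, 30.8 and 25.7 in ovary and 9.53, 13.3 and 0 in VG (limma-moderated adjusted p = 0.021). That call was lost without VG library a (0.085) or c (0.069) and with limma on log2 values plus 1 (0.058). Another (Nasvi2EG011700) had 61 ovary reads and 1 VG read and did not pass (limma-moderated adjusted p = 0.052). PKNOX2 (Nasvi2EG004713), of the same TALE group of homeobox proteins, had means of 1464 in ovary and 220 in VG, 6.67-fold higher in ovary without a test.

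Several homeobox genes outside the Hox series were also higher in ovary. Among all 30 homeobox genes with a mean of at least 10, Hox genes included, 14 were at least 4-fold higher in ovary and 8 in VG (13 and 9 relative to the median of all genes, 14 and 6 relative to totals). Over all genes the shares were 19.3% and 22.7%. SIX4 (Nasvi2EG004372), a factor of the sine oculis family that acts in mesoderm and gonad formation in *Drosophila*, held 379, 430 and 383 in ovary and 3.81, 2.22 and 0 in VG. The 3 VG reads set against 2921 ovary reads gave a 197-fold higher ovary value, with a counting interval (exact, 95%) of 57.1 to 811. The difference passed the fit with ovary means up to 500 (limma-moderated adjusted p = 4.5e-06).

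Aristaless (Nasvi2EG002095), a paired-type homeobox gene known from appendage development in *Drosophila*, showed the same separation. It held 260, 263 and 222 in ovary and 9.53, 6.66 and 6.97 in VG, a log2 difference of -4.98 ± 0.86 (limma-moderated adjusted p = 1.6e-05). Lhx9 (Nasvi2EG009023), a LIM homeobox gene needed for gonad formation in the mouse, held 204, 231 and 210 in ovary and 28.6, 13.3 and 13.9 in VG, a log2 difference of -3.44 ± 0.52 (limma-moderated adjusted p = 3.3e-05). Cut (Nasvi2EG003893), which keeps follicle cells dividing in *Drosophila* egg chambers, held 409, 481 and 367 in ovary and 34.3, 48.9 and 20.9 in VG, a log2 difference of -3.53 ± 0.58 (limma-moderated adjusted p = 5.0e-05). In aristaless, Lhx9 and cut alike, the lowest ovary library lay above the highest VG library.

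Smaller ovary signals came from an Nk homeobox gene and rough. The Nk gene (Nasvi2EG014884) held 73.1, 64.8 and 71.7 in ovary and 3.81, 8.88 and 3.49 in VG (log2 difference -3.66 ± 0.85, limma-moderated adjusted p = 3.3e-04). Rough (Nasvi2EG008796), an eye development gene in *Drosophila*, had 225 ovary reads and 2 VG reads, 24-fold higher in ovary with a counting interval of 5.28 to 160 (limma-moderated adjusted p = 0.0049). A paired mesoderm homeobox gene (Nasvi2EG005324) had 34 ovary reads and none in VG (limma-moderated adjusted p = 0.026), a call lost without VG library a (0.081) or b (0.055).

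Other homeobox genes were higher in VG, among them engrailed, the segment polarity factor of posterior compartments. One engrailed gene (Nasvi2EG002079) held 0, 1.21 and 2.17 in ovary and 614, 813 and 265 in VG, a 499-fold higher VG mean and a log2 difference of 9.12 ± 1.83 (limma-moderated adjusted p = 3.1e-06). A second (Nasvi2EG002076) held 3.48, 3.24 and 3.48 in ovary and 38.1, 55.5 and 24.4 in VG (log2 difference 3.60 ± 0.42, limma-moderated adjusted p = 7.8e-05). Another (Nasvi2EG002075) had no read. Spalt-major (Nasvi2EG019910), known from wing and trachea patterning in *Drosophila*, held 2.32, 4.05 and 2.61 in ovary and 236, 77.7 and 254 in VG, a log2 difference of 5.94 ± 0.83 (limma-moderated adjusted p = 2.5e-05). For each of the 2 engrailed genes with reads and for spalt-major, the tissues did not overlap.

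Muscle segmentation homeobox (Nasvi2EG016888) and Lhx3 (Nasvi2EG002602), a LIM homeobox gene of motor neurons, were lower in number of reads but also higher in VG. The former held 0.387, 5.26 and 1.30 in ovary and 26.7, 22.2 and 31.4 in VG (limma-moderated adjusted p = 0.0017). Lhx3 held 2.32, 3.24 and 5.22 in ovary and 17.2, 20 and 13.9 in VG (limma-moderated adjusted p = 0.0029). Lhx5 (Nasvi2EG018290) held 16.6, 23.1 and 15.2 in ovary and 149, 20 and 94.1 in VG, and the tissues overlapped. Its call (limma-moderated adjusted p = 0.0041) was lost without VG library a (0.10) and with limma on log2 values plus 1 (0.064) or plus 4 (0.057). Visual system homeobox 1 (Nasvi2EG012786) had 11 ovary and 9 VG reads and overlapping libraries. It missed the threshold in the first fit (limma-moderated adjusted p = 0.052) and passed it in the second (0.048), where the call was lost without VG library b (0.6) or any 1 of the ovary libraries (0.058 to 0.096). The brain-specific homeobox gene (Nasvi2EG004711) had 9 ovary and 14 VG reads. Its call (limma-moderated adjusted p = 0.022) was lost without VG library a or c (0.11 each) and with limma on log2 values plus 1 (0.22) or plus 4 (0.14).

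**Figure D3:**
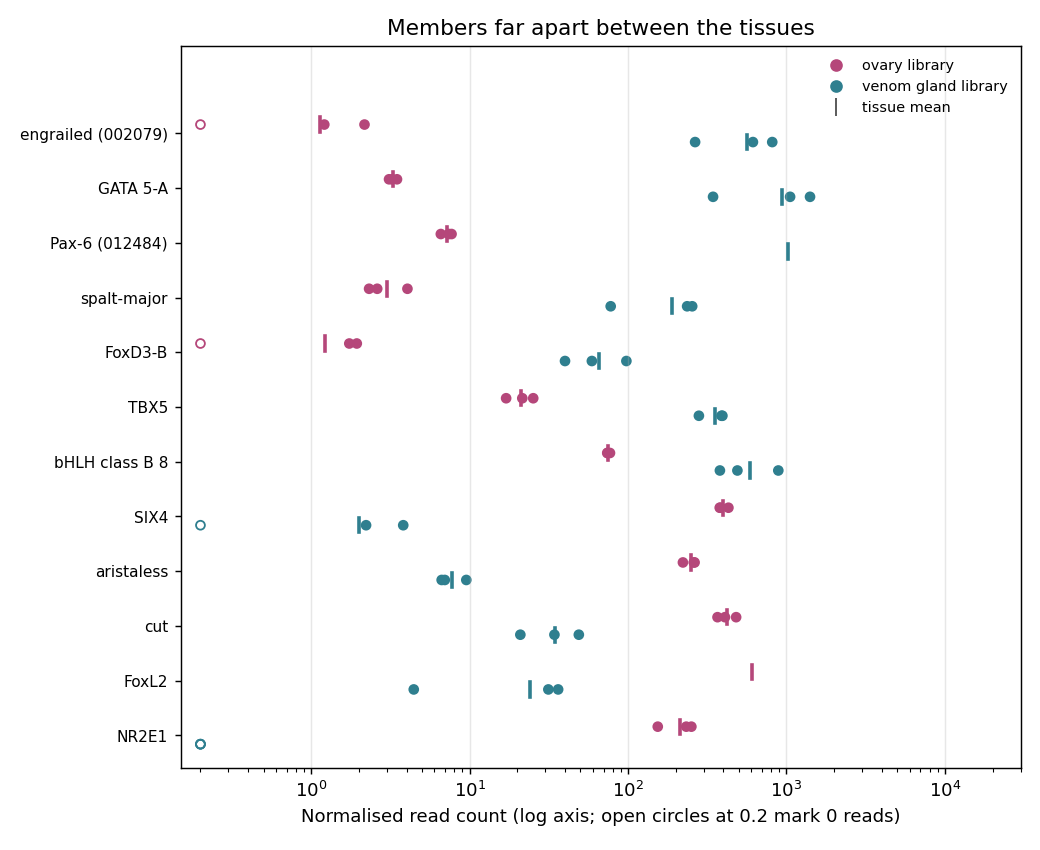
Normalised read counts (log axis) of 12 members far apart between the tissues, with a point per library, a bar for the tissue mean and open circles at 0.2 for 0 reads. The VG-high genes at the top run from engrailed, 499-fold apart, to bHLH class B 8, 7.81-fold apart, and in the ovary-high genes below no VG library exceeds 48.9.

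All 15 forkhead genes had a read. Of the 12 with a mean of at least 10, 3 were at least 4-fold higher in ovary and 3 in VG, near the shares of all genes of 19.3% and 22.7% (3 and 4 relative to the median of all genes, 5 and 3 relative to totals). FoxL2 (Nasvi2EG016141), a factor of ovarian somatic cells in vertebrates, had an ovary mean of 603 and VG libraries at 36.2, 4.44 and 31.4, a 25.1-fold higher ovary mean for which no test was made. Fork head domain protein FD2 (Nasvi2EG014988) held 22.1, 17.8 and 13.9 in ovary and 0 in each VG library, at least 5.14-fold higher in ovary (limma-moderated adjusted p = 0.0068). FoxF2 (Nasvi2EG016082), a gene of gut-associated mesoderm in vertebrates, held 20.1, 8.91 and 10.4 in ovary and 0 in each VG library, at least 3.77-fold higher (limma-moderated adjusted p = 0.031). That call was lost without VG library a (0.09) or b (0.05).

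In the VG direction, FoxD3-B (Nasvi2EG013184), a neural crest and stem cell factor in vertebrates, held 1.94, 0 and 1.74 in ovary and 59.1, 40.0 and 97.6 in VG, a log2 difference of 5.64 ± 0.82 (limma-moderated adjusted p = 4.3e-05). Fork head (Nasvi2EG003582), which in *Drosophila* is needed to form the salivary gland and its secretion, held 2.32, 2.02 and 0.435 in ovary and 34.3, 6.66 and 17.4 in VG. Its VG libraries all exceeded the ovary libraries, with a log2 difference of 3.66 ± 0.74 (limma-moderated adjusted p = 0.0018). FoxP4 (Nasvi2EG022796) held 225, 224 and 176 in ovary and had a VG mean of 1678, 8.05-fold higher without a test.

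FoxO, the forkhead factor restrained by insulin signalling, was represented by 2 entries that behaved differently. One (Nasvi2EG008919) had means of 1176 in ovary and 1018 in VG, and changed side relative to the median of all genes. The other (Nasvi2EG021644) held 80.5, 72.5 and 97.8 in ovary and 191, 551 and 143 in VG, a log2 difference of 1.89 ± 0.40 (limma-moderated adjusted p = 0.0045). The difference between the entries was not tested. FoxN3 (Nasvi2EG011740) had means of 945 and 1075, a side that changed with the scaling to totals, and FoxK2 (Nasvi2EG008937) had means of 1942 in ovary and 499 in VG, 3.89-fold higher in ovary without a test. Sloppy paired 1 (Nasvi2EG010203), a segmentation gene, held 24.4, 10.5 and 9.13 in ovary and 5.72, 2.22 and 0 in VG and did not pass (limma-moderated adjusted p = 0.11).

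Most of the nuclear receptors had reads in both organs. Of the 7 with a mean of at least 10, 1 was at least 4-fold higher in ovary and none in VG (3 and 0 relative to totals). Over all genes these shares were 19.3% and 22.7%. In the fit with ovary means up to 500, 4 of 5 were higher in ovary and none in VG, beside 31.1% and 37.9% of all genes. FTZ-F1 and HR96 had higher VG means (1263 and 2067), over the limit of 1000 for recovering reads, and could not enter that fit. The gene past 4-fold was NR2E1 (Nasvi2EG017396), the annotation's name for a receptor of the tailless group, which pattern the embryo ends and the brain in *Drosophila*. It held 154, 251 and 233 in ovary and 0 in each VG library, at least 61.0-fold higher in ovary (limma-moderated adjusted p = 0.0014 in the fit with ovary means up to 500).

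The ecdysone receptor itself did not separate the organs beyond the spread. EcR (Nasvi2EG002543) held 238, 270 and 204 in ovary and 446, 293 and 237 in VG, a log2 difference of 0.53 ± 0.22 (limma-moderated adjusted p = 0.067). E75 and HR3, receptors that ecdysone induces in *Drosophila*, were higher in ovary. E75 (Nasvi2EG010129) held 444, 449 and 427 in ovary and 339, 95.5 and 94.1 in VG (log2 difference -1.16 ± 0.35, limma-moderated adjusted p = 0.009), and the higher VG library still lay below the ovary libraries. HR3 (Nasvi2EG006375) held 114, 155 and 132 in ovary and 24.8, 62.2 and 13.9 in VG (log2 difference -1.90 ± 0.54, limma-moderated adjusted p = 0.0043). A second E75 entry had no read, and E78C (Nasvi2EG008289) had means of 0.969 and 2.75.

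The 2 FTZ-F1 type receptors, orphan receptors that act around ecdysone pulses in *Drosophila*, went opposite ways in their means. FTZ-F1 beta (Nasvi2EG007382) held 484, 474 and 427 in ovary and 282, 178 and 275 in VG, a log2 difference of -0.93 ± 0.19 (limma-moderated adjusted p = 0.0015). FTZ-F1 (Nasvi2EG028970) held 400, 450 and 397 in ovary and had a VG mean of 1263, 3.04-fold higher without a test. HR96 (Nasvi2EG000370), which responds to lipids and foreign compounds in *Drosophila*, had means of 628 and 2067, 3.29-fold higher in VG without a test.

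**Figure D4:**
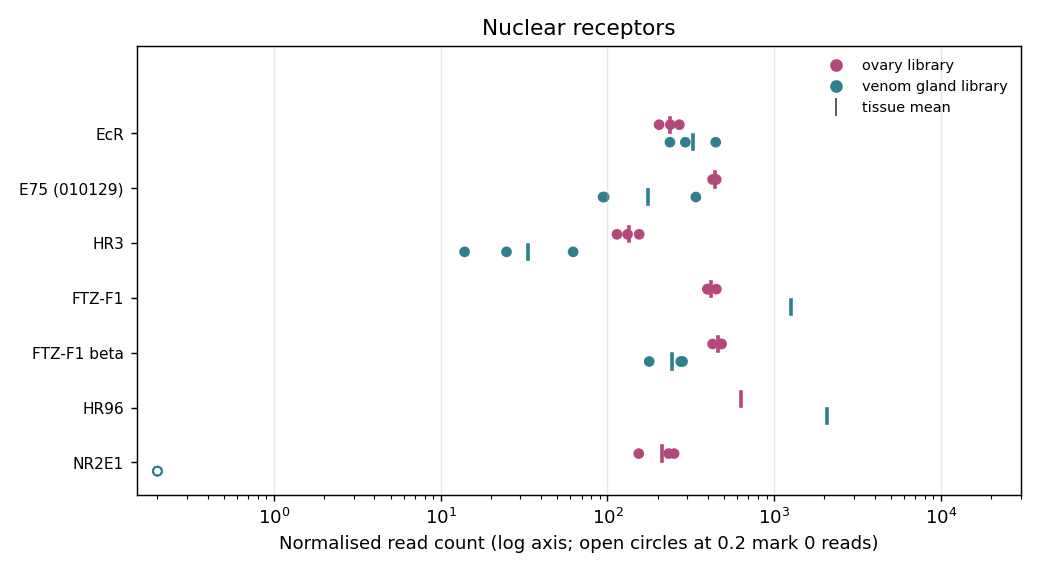
Normalised read counts (log axis) of 7 nuclear receptor genes, with a point per library, a bar for the tissue mean and open circles at 0.2 for 0 reads. EcR libraries overlap between the tissues, E75 and HR3 libraries are higher in ovary, and NR2E1 has 0 in all VG libraries.

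Ecdysteroid and juvenile hormone genes outside the annotation rule, Broad-complex genes among them, were also examined. Of 13 such genes, 10 had a mean of at least 10, of which 4 were at least 4-fold higher in ovary and 2 in VG, beside 19.3% and 22.7% of all genes. The 2 higher in VG were juvenile hormone esterase and a Broad-complex gene. In the test, 1 of 5 was higher in ovary and 2 in VG (3 and 2 of 7 with ovary means up to 500), beside 21.2% and 44.6% of all genes (31.1% and 37.9%). Juvenile hormone esterase (Nasvi2EG016304), which breaks down juvenile hormone, held 1.94, 0.405 and 0.87 in ovary and 95.3, 26.6 and 38.3 in VG, a log2 difference of 5.73 ± 1.04 (limma-moderated adjusted p = 1.6e-04). Juvenile hormone epoxide hydrolase 1 (Nasvi2EG007080) had means of 4289 in ovary and 1065 in VG, 4.03-fold higher in ovary without a test. Another juvenile hormone epoxide hydrolase (Nasvi2EG007079) had means of 29.7 in ovary and 69 in VG and did not pass (limma-moderated adjusted p = 0.067). The P450 enzyme called disembodied in *Drosophila* (Nasvi2EG010394), which acts late in ecdysone synthesis, held 82.8, 82.6 and 81.3 in ovary and 0 in each VG library (limma-moderated adjusted p = 3.6e-04). The P450 enzymes called shadow (Nasvi2EG004055) and spook (Nasvi2EG015618), of the same pathway, had ovary means of 225 and 257 against VG means of 1.48 and 17.1 (limma-moderated adjusted p = 1.3e-05 and 9.8e-04). The P450 enzyme called phantom (Nasvi2EG031935) held 147, 143 and 133 in ovary and 124, 180 and 83.6 in VG and did not pass (limma-moderated adjusted p = 0.81). A Broad-complex gene (Nasvi2EG002100), an early ecdysone target, held 112, 102 and 93.5 in ovary and 448, 149 and 676 in VG (log2 difference 1.93 ± 0.35, limma-moderated adjusted p = 0.0018).

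The test could be made for 2 bHLH genes, and both passed it as higher in VG, beside 44.6% of all genes fitted. Class B bHLH protein 8 (Nasvi2EG001131), whose mammalian namesake is the factor MIST1 of secretory exocrine cells, held 73.9, 76.9 and 74.4 in ovary and 490, 888 and 380 in VG, a log2 difference of 3.02 ± 0.29 (limma-moderated adjusted p = 3.6e-05). Another class B gene (Nasvi2EG000801) held 3.1, 3.24 and 0.87 in ovary and 15.3, 28.9 and 3.49 in VG (log2 difference 2.83 ± 0.64, limma-moderated adjusted p = 0.0048). That call was lost with limma on log2 values plus 1 (0.054) or plus 4 (0.053). The other 4 bHLH genes had means below 5 in both tissues.

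Pax-6, GATA and T-box genes gave further VG signals. Pax-6 (Nasvi2EG012484), the eye and head factor, held 6.58, 7.69 and 7.39 in ovary and had a VG mean of 1027, 142-fold higher without a test, and a second Pax-6 entry (Nasvi2EG015857) had means of 0.957 and 4.44. GATA 5-A (Nasvi2EG002173), of a family that acts in insect gut, fat body and blood cells, held 3.1, 3.24 and 3.48 in ovary and 1054, 344 and 1408 in VG, a log2 difference of 8.08 ± 1.66 (limma-moderated adjusted p = 1.6e-05). A gene annotated as GATA-binding factor A, a name of pannier in *Drosophila* (Nasvi2EG002162), held 0.387, 3.64 and 4.35 in ovary and 34.3, 15.5 and 73.2 in VG (limma-moderated adjusted p = 0.0015). A further GATA gene (Nasvi2EG014971) went the other way, with 149, 148 and 138 in ovary and 21.0, 51.1 and 20.9 in VG (log2 difference -2.19 ± 0.42, limma-moderated adjusted p = 3.7e-04). Another entry annotated as GATA-binding factor A (Nasvi2EG002074) had 50 ovary reads and 2 VG reads. Its ovary libraries lay above its VG libraries, but it did not pass (limma-moderated adjusted p = 0.11).

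TBX5 (Nasvi2EG003929), a heart and limb factor in vertebrates, held 17.0, 21.5 and 25.2 in ovary and 389, 280 and 394 in VG, a log2 difference of 4.06 ± 0.26 (limma-moderated adjusted p = 1.8e-06). TBX1 (Nasvi2EG004177) held 42.2, 43.3 and 37.4 in ovary and 9.53, 2.22 and 13.9 in VG, a log2 difference of -2.37 ± 0.69 (limma-moderated adjusted p = 0.0036). The 2 TBX20 genes had overlapping libraries in both tissues and did not pass (limma-moderated adjusted p = 0.41 and 0.95).

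Of the 3 Sox genes tested, 1 was higher in VG and 1 in ovary, beside 44.6% and 21.2% of all genes fitted. SOX-15 (Nasvi2EG012765) held 25.5, 27.1 and 23.9 in ovary and 133, 120 and 129 in VG, a log2 difference of 2.32 ± 0.21 (limma-moderated adjusted p = 3.3e-05). One SOX-8 gene (Nasvi2EG037017), related to the vertebrate gonad factor SOX-9, held 46.4, 44.5 and 40.0 in ovary and 1.91, 0 and 0 in VG, 68.7-fold higher in ovary with a counting interval of 9.85 to 2189 (limma-moderated adjusted p = 3.9e-04). SOX-5 (Nasvi2EG015884) overlapped between the tissues (limma-moderated adjusted p = 0.51). Of the ets genes, 2 of 3 tested were higher in ovary and none in VG, beside 21.2% and 44.6% of all genes fitted. D-ETS-4 (Nasvi2EG004578) held 49.5, 46.6 and 42.6 in ovary and 11.4, 6.66 and 3.49 in VG (log2 difference -2.55 ± 0.68, limma-moderated adjusted p = 0.0019).

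D-ETS-6 (Nasvi2EG006872) had 60 ovary reads and 2 VG reads, and its call (limma-moderated adjusted p = 0.039) was lost relative to the median of all genes (0.067) and without ovary library b (0.068) or c (0.064) or VG library b (0.14) or c (0.094). Elf-5 (Nasvi2EG012146), an epithelial ets factor in mammals, held 451, 419 and 404 in ovary and had a VG mean of 1343, 3.16-fold higher without a test. Pokkuri (Nasvi2EG012219), the repressor of receptor tyrosine kinase signalling also called yan, had an ovary mean of 782 and VG libraries at 234, 142 and 338, a 3.28-fold higher ovary mean without a test. Ets97D (Nasvi2EG025128) held 184, 203 and 216 in ovary and 269, 107 and 237 in VG and did not pass (limma-moderated adjusted p = 0.94).

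Of the 13 cofactors and other proteins, 10 had a mean of at least 10 and none of these differed 4-fold. Over all genes, 19.3% were 4-fold higher in ovary and 22.7% in VG. In the fit with ovary means up to 500, 1 of 4 was higher in ovary and 1 in VG, beside 31.1% and 37.9% of all genes. The nuclear receptor corepressor (Nasvi2EG012189) held 399, 517 and 427 in ovary and 892, 811 and 1066 in VG, a log2 difference of 1.01 ± 0.15 (limma-moderated adjusted p = 5.0e-04). The nuclear receptor 2C2-associated protein (Nasvi2EG018292) held 139, 130 and 143 in ovary and 62.9, 51.1 and 122 in VG. Its call (limma-moderated adjusted p = 0.021) was lost relative to the median of all genes (0.084) and without VG library a (0.10) or b (0.059).

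Other gene lists of the transcription apparatus leaned to the ovary in their medians. Of 48 other sequence-specific factors with a mean of at least 10, 9 were at least 4-fold higher in ovary and 2 in VG, with a median log2 ratio of -0.65. The 62 genes of the general transcription machinery had counts of 9 and 1 and a median of -0.95, and the 157 zinc finger genes counts of 28 and 14 and a median of -0.70. The same median for all genes was -0.08, and 19.3% and 22.7% of all genes were at least 4-fold higher in ovary and VG. In each list the ovary share at 4-fold was not above that of all genes, and the VG share was below it.

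Marker genes of some cell types also differed between the organs, and their part in the differences above was not tested. Over all genes with a mean of at least 10, 19.3% were at least 4-fold higher in ovary and 22.7% in VG. Of 21 germ line markers with a mean of at least 10, 14 were at least 4-fold higher in ovary and 1 in VG, with summed means of 109593 in ovary and 9548 in VG; vasa had means of 9788 and 39.4 and oskar 5422 and 8.25. Of 19 genes named for venom, 14 were at least 4-fold higher in VG and 4 in ovary, with sums of 8454 in ovary and 586437 in VG. Most of that VG sum, 530881, came from 1 gene (Nasvi2EG009991). Fat body markers were also higher in VG, with 8 of 13 at least 4-fold higher, 1 higher in ovary and sums of 9202 and 116499. Here 1 vitellogenin gene (Nasvi2EG010626) held 100996 of the VG sum. Haemocyte markers had 3 of 5 higher in VG and none in ovary (sums of 812 and 6331), and 1 peroxidasin gene (Nasvi2EG014435) held 5732 of the VG sum. The genes found by neuron terms had 4 of 14 higher in VG and 2 in ovary (sums of 9162 and 6719). Without CUGBP Elav and extended synaptotagmin genes, which are not particular to neurons and were left out after their values were seen, these were 4 and 1 of 11 (sums of 3325 and 4756). Genes found by muscle terms had 2 of 15 on each side (sums of 24184 and 13380), and without a non-muscle myosin heavy chain, likewise left out, 1 of 14 was higher in ovary and 2 in VG (sums of 9596 and 10626). The 2 follicle cell markers, both chorion peroxidases, were higher in ovary.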

How the data were processed

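Libraries from 3 pools of ovary and 3 of VG were sequenced as strand-specific, paired-end reads. TopHat was used by the authors for mapping, HTSeq for strand-specific counting per gene, and DESeq for scaling. The sources used here name no genome build. The deposited table holds a signal per tissue, the mean normalised count that the authors took over 3 libraries. Columns of the authors' own comparison (fold changes and p-values) were not used. The table held 0 columns of single samples. The tissue of each mean was read from matching values in the study's gene table.

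Each mean is a sum of whole reads times a fixed step per library. The steps were estimated from low means, and every combination of whole reads within 1.2 half-units of the last of the table's digits was searched, up to a mean of 200 in ovary and 1000 in VG. All 11200 ovary means up to 100, 512 of 926 from 100 to 200, and all 14115 VG means up to 1000 had 1 combination. Recovered reads are thus inferred from the means. The search and the fit were tested on simulated data.

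Reads were fitted by a quasi-Poisson model with the recovered size factors as offsets, dispersions moderated by squeezeVar of limma 3.58.1 in R 4.3.3, and Benjamini-Hochberg adjustment over all genes with at least 20 reads. The log2 differences are VG over ovary with their standard errors. With 3 libraries per tissue, an exact permutation test of 1 gene could not go below p = 0.1. Counting intervals are exact (conditional binomial, 95%) and cover counting error only.

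The genes named were up to 3 per class and tissue with the highest mean, 10 with the largest ratio each way, those called by the test, and a list of known factors; others, such as Lhx9 and the cofactors, were named after their values were seen. Some members that the rule would name are not reported here. Members and lists were chosen with earlier results of these data known. Python 3.11.15 was used for all other steps.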

Additional observations from a re-analysis of the deposited data

How the results depend on the processing

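The counts at 4-fold kept within 1.5 times under most settings. The ovary count of 22 of 77 became 14 of 77 at 8-fold. The VG count of 18 of 77 became 34 of 113 with a minimum mean of 1, which let in more members. Shares of all genes at these settings are not given here. The median log2 ratio of 0.02 was close to 0 and turned negative with a minimum mean of 30 (-0.37) and with scaling to totals without the 100 highest genes (-0.77). In the test, the ovary count of 15 became 26 when ovary means up to 500 were added, by the addition of 16 fitted members. Leaving out 1 library at a time gave 11 to 16 members higher in ovary and 16 to 17 higher in VG, and with ovary means up to 500 it gave 22 to 28 and 17 to 19. Of the 32 members called, 24 kept the call in every alternative run on them and 8 lost it in at least 1. Of the 13 members called only with ovary means up to 500, 12 kept the call in the alternatives run and visual system homeobox 1 lost it in 5 of 8, among them limma on log2 values plus 1 (0.48). No paired analysis was possible because the recovered libraries carry no replicate number. VG values rest on fewer reads per unit of mean, which limits statements on genes near 0 in VG, and members with high means have no test.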
